A study of Mus musculus with 15 samples.

Results

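Notch signalling passes between cells that touch. A ligand of the Jagged or Delta-like family on 1 cell pulls on a Notch receptor of its neighbour, proteases release the receptor's intracellular part, and that part joins the DNA-binding protein RBPJ to switch on genes such as Hes1, Dtx1 and Nrarp. In the mouse spleen, the CD4+ ESAM+ dendritic cells (DCs) are known to need Notch2 and RBPJ, and stromal cells that carry Dll1 are a known source of the signal. The members described here are 9 genes of this pathway, chosen by symbol among the 38924 gene identifiers of the deposited tables: the receptors Notch1, Notch2 and Notch4, the nuclear effector Rbpj, the target genes Hes1, Dtx1 and Nrarp, and the ligands Jag1 and Dll4. Each symbol matched 1 Ensembl gene, and 9 of 9 members were among the 14456 genes over the filter on low counts, which asked for more than 1 CPM (counts scaled to a common library size) in at least 3 libraries.

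RNA had been sequenced from 5 sorted subtypes of mononuclear phagocytes, with 3 libraries each. All mice were naïve female C57BL/6, 6 to 10 weeks old by the study's methods and 6 to 8 weeks by the sample descriptions, with no engineered allele and no treatment. Splenic samples were Ly6C+ monocytes and 2 DC subtypes, of which the CD8+ DCs belong to the DC1 lineage and the CD4+ DCs to DC2. Lung-draining lymph nodes (LNs) were the source of CD103+ DCs, which are DC1s, and of CD11b+ DCs, which are DC2s. Each library was a pool of cells from 5 mice, so the p values below measure the spread between pools. LNs and spleens came from different cohorts, and sorting of the LN DCs kept those with abundant MHC II, a mark of migration from the lung, so organ, cohort and gate cannot be told apart. Before sorting, monocytes were enriched with CD11b beads and DCs with CD11c beads. The counts of each monocyte library were summed over separate sequencing runs, while those of the DC libraries were not. Between monocytes and DCs, cell type, enrichment and runs thus cannot be told apart. Libraries held 4531243 to 10233914 counts on genes. In such pools, fewer cells of a kind and less RNA per cell cannot be told apart, and without molecular identifiers the counting intervals below cover counting error only.

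Summed markers of the DC lineages separated DC1 from DC2 libraries within each organ. The DC1 list (Xcr1, Clec9a, Irf8, Batf3, Cd8a and Itgae) summed to 3304 to 5153 CPM in splenic CD8+ DCs against 93.6 to 135 in splenic CD4+ DCs. Its sum in LN CD103+ DCs was 714 to 1040 CPM, against 284 to 436 in LN CD11b+ DCs. Irf8 gave most of the LN CD103+ sum, at 534 to 764 CPM against 187 to 331 in LN CD11b+ DCs. Batf3 did not separate the LN lineages, with 79.45 to 91.7 CPM in CD103+ and 65.75 to 85.2 CPM in CD11b+ DCs. The DC2 list (Itgam, Sirpa, Irf4 and Cd4) summed to 1414 to 2444 CPM in splenic CD4+ DCs and 784 to 866 in LN CD11b+ DCs, and to at most 167 in the DC1 libraries. Neither list set DCs apart from monocytes, in which the DC1 list summed to 478 to 593 CPM and the DC2 list to 2275 to 2593 CPM, while the 4 monocyte markers summed to 5253 to 5770 CPM there and 675 or less in DCs. Esam and Clec4a4, which mark the splenic DC2s that need Notch2, summed to 218 to 348 CPM in splenic CD4+ DCs and to at most 65.7 in any other library. Clec4a4 gave most of that gap, at 155 to 230 CPM in splenic CD4+ DCs and 12.1 CPM or less elsewhere. Esam did not separate all libraries, with 62.7 to 118 CPM in splenic CD4+ DCs and 40.3 to 65.7 CPM in LN CD103+ DCs. Among libraries that stood apart, splenic CD8+ replicate 1 had the highest DC2 sum of its subtype (167 CPM against 90.9 and 57.8), with 18.2 CPM of Cd4 against 3.10 and 1.94. In LN CD103+ replicate 1 the 8 B cell markers summed to 281 CPM, against 19.5 and 31.4 in the other replicates. The 6 T cell markers summed to 66.9 to 138 CPM in the LN DC libraries and to 27.0 or less in the splenic ones. The 8 endothelial markers summed to 52.1 CPM or less, mostly from Kdr, with Cdh5 at 2.15 CPM or less and Emcn and Sox17 at 0 in all DC libraries. The 8 stromal markers summed to 9.52 CPM or less. The part of these markers in the results below was not tested, except that values without the libraries named here are given where they differ.

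Splenic CD8+ DCs held the most receptor RNA of the 5 subtypes, and most of it was Notch4. Levels of different genes were compared in TPM, in which counts are divided by exon length. The TPM of Notch1 to Notch4 summed to 52.8 ± 6.93 (SD, n = 3) in splenic CD8+ DCs, of which Notch4 held 64.8% ± 9.47 and Notch2 29.3% ± 7.82. In the other subtypes Notch2 led: it held 92.0% ± 2.85 of a summed 13.5 TPM in LN CD11b+ DCs, 87.1% ± 5.38 of 18.4 TPM in splenic CD4+ DCs and 83.4% ± 11.04 of 15.4 TPM in LN CD103+ DCs. In monocytes Notch2 held 68.0% ± 1.23 of 34.3 TPM and Notch1 31.2% ± 1.24, while Notch1 held at most 5.36% on average in a DC subtype. Notch3, the fourth receptor, held 2.88% or less on average in every subtype.

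**Figure D1:**
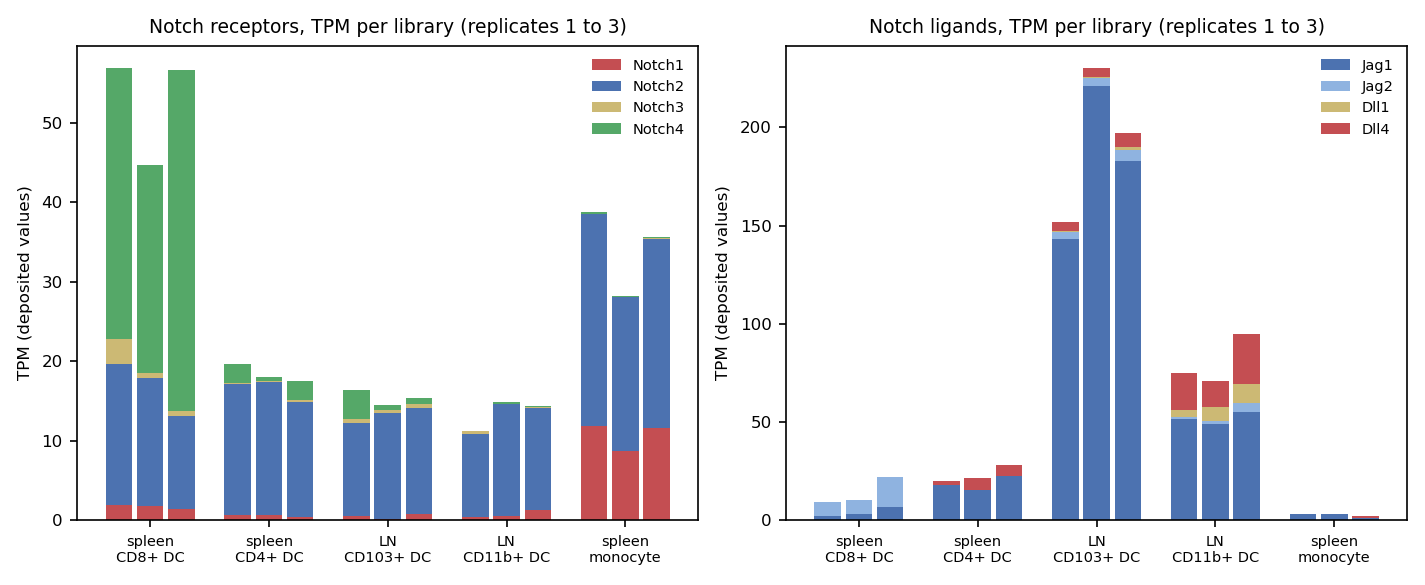
Deposited TPM (y axis, linear from 0) of the 4 Notch receptors (left) and of 4 Notch ligands (right), stacked in each of the 15 libraries, which are grouped by subtype along the x axis. Notch4 makes up most of the receptor bars in splenic CD8+ DCs and Notch2 most of those in the other 4 subtypes, while the ligand bars are tallest in LN CD103+ DCs (151.5 to 230.3 TPM), where they are almost all Jag1.

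Notch2 (chromosome 3, 98013538 to 98150367, plus strand, GRCm38), the receptor that splenic CD4+ DCs are known to need, varied least of the members, with 1.73-fold between its highest and lowest subtype means. It measured 75.2, 72.5 and 51.2 CPM in splenic CD8+ DCs and 67.6, 80.9 and 56.2 CPM in splenic CD4+ DCs. The LN CD11b+ libraries had 45.0, 66.4 and 52.5 CPM and the LN CD103+ libraries 54.1, 63.4 and 60.7 CPM, and monocytes were at 104.9, 81.2 and 97.0 CPM. The 4 DC subtypes overlapped one another, and the lowest monocyte library lay just above the highest DC library. Splenic CD4+ DCs and CD8+ DCs differed by 0.04 ± 0.21 (log2 ± SE; adjusted p = 0.915, edgeR quasi-likelihood test), so no difference beyond the replicate spread was seen for this receptor between the splenic DC lineages. Monocytes were 1.59-fold above LN CD103+ DCs (edgeR adjusted p = 0.0116) and 1.73-fold above LN CD11b+ DCs (edgeR adjusted p = 0.00446). The difference from splenic CD4+ DCs missed the threshold (edgeR adjusted p = 0.0726). The call against LN CD103+ DCs was lost without monocyte replicate 1 (edgeR adjusted p = 0.0501). The same holds for the test of any difference of Notch2 over the 5 subtypes (edgeR adjusted p = 0.018), which gave 0.101 without monocyte replicate 1 and 0.0719 without replicate 3.

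Notch4 (chromosome 17, 34564268 to 34588503, plus strand), a receptor best known from blood vessel endothelium, was high in splenic CD8+ DCs alone. It measured 110.3, 90.9 and 143.8 CPM there, and 7.47, 1.70 and 7.15 CPM in splenic CD4+ DCs, a 21.1-fold difference of the means (log2 fold change of CD4+ minus CD8+ -4.38 ± 0.56 SE, edgeR adjusted p = 1.12e-05). LN CD103+ DCs, the DC1s of the LN, had 13.1, 2.10 and 2.81 CPM, which was 19.1-fold below splenic CD8+ DCs (edgeR adjusted p = 4.51e-06). Without LN CD103+ replicate 1, the library with the high B cell sum, that ratio was 46.8. LN CD11b+ DCs had 1, 6 and 2 counts (0.107, 0.879 and 0.441 CPM) and monocytes 4, 6 and 4 counts. Notch4 was 12.6-fold higher in LN CD103+ than in LN CD11b+ DCs (log2 difference of LN CD11b+ minus LN CD103+ -3.71 ± 0.79, edgeR adjusted p = 0.00363), a ratio that fell to 5.17 without LN CD103+ replicate 1 and rose to 27.7 without LN CD11b+ replicate 2. On log2(TPM + 1) with limma this call was lost (adjusted p = 0.0889). It was also 11.4-fold higher in splenic CD4+ than in LN CD11b+ DCs (edgeR adjusted p = 0.00194; 25.1-fold without LN CD11b+ replicate 2). In the splenic CD8+ libraries the endothelial markers Tie1, Emcn, Cldn5 and Sox17 were at 0, Robo4 and Tek were at 0.836 CPM or less, Cdh5 at 2.15 CPM or less and Kdr at 10.1 to 27.1 CPM. The 4 plasmacytoid DC markers (Siglech, Ccr9, Klk1 and Cox6a2) summed to 66.6 to 88.6 CPM in splenic CD8+ DCs and to 19.9 CPM or less in every other library. Ccr9 gave most of that sum, at 50.5 to 74.5 CPM against 15.8 CPM or less elsewhere. Siglech was at 35.5, 13.5 and 3.89 CPM in splenic CD8+ DCs and reached 11.7 CPM in LN CD11b+ replicate 3. Klk1 and Cox6a2 were at 0.404 CPM or less in splenic CD8+ DCs and highest in LN CD103+ replicate 3 (2.48 and 1.16 CPM). The part of these markers in the Notch4 difference was not tested.

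Notch1 (chromosome 2, 26457903 to 26516663, minus strand), the receptor that commits lymphoid progenitors to the T cell lineage, was a monocyte gene in this set. Monocytes measured 62.9, 48.9 and 64.4 CPM, and no DC library was above 10.8 CPM. Splenic CD8+ DCs came second with 10.6, 10.8 and 8.47 CPM, 5.90-fold below monocytes (edgeR adjusted p = 2.88e-05) and 3.41-fold above splenic CD4+ DCs, which had 3.35, 3.75 and 1.66 CPM (log2 difference of CD4+ minus CD8+ -1.76 ± 0.43, edgeR adjusted p = 0.00491). LN CD103+ DCs had 3.48, 1.17 and 4.47 CPM and LN CD11b+ DCs 2.47, 3.08 and 7.28 CPM. These did not differ from each other or from splenic CD4+ DCs beyond their spread (edgeR adjusted p = 0.598 and 0.985 for neighbours in the order). Splenic CD8+ DCs were 2.33-fold above LN CD11b+ DCs (edgeR adjusted p = 0.0194). That call was lost without splenic CD8+ replicate 2 and without LN CD11b+ replicate 1 or 2 (edgeR adjusted p 0.0518 to 0.104), and without LN CD11b+ replicate 3 the ratio was 3.59. Of the Notch1 exon length, 9.8% overlaps 0610009E02Rik and Gm13568 on the opposite strand, and the counting did not use strand. Those genes measured 8.50 to 10.5 and 2.35 to 3.28 CPM in monocytes and 2.91 CPM or less in DC libraries, so these genes too were highest in monocytes.

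**Figure D2:**
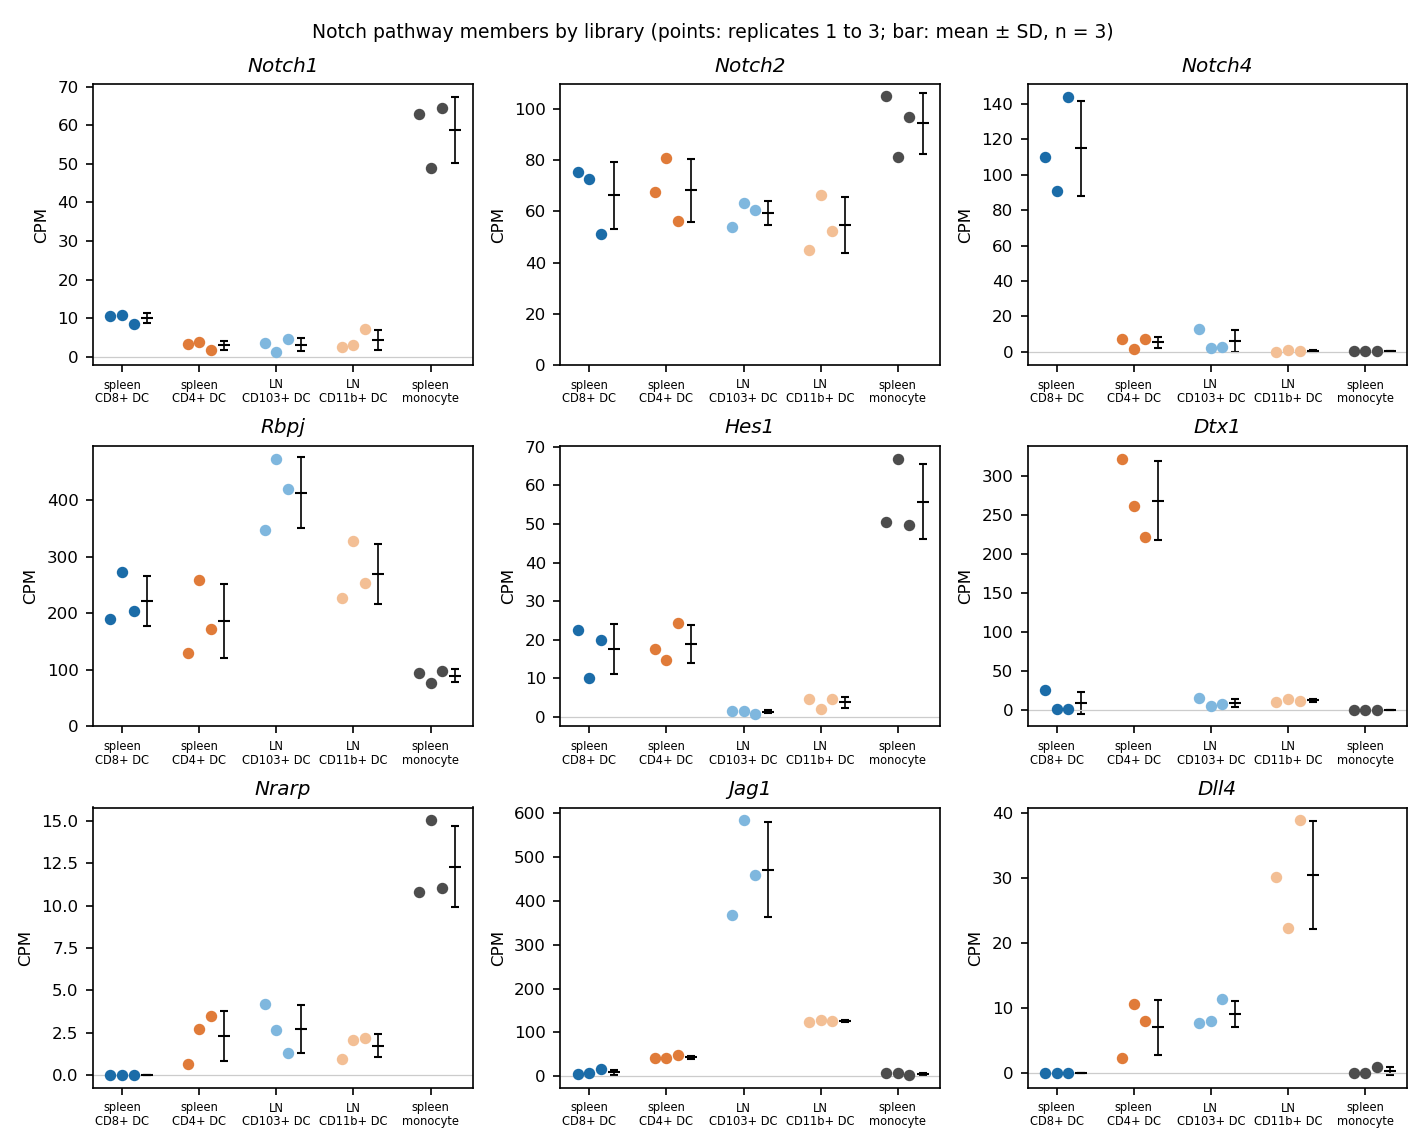
CPM (y axis, linear, with library sizes scaled by TMM) of each member in each library, by subtype along the x axis. Points are replicates 1 to 3 and the bar beside them is the mean ± SD (n = 3). Notch4 stands out in splenic CD8+ DCs, Dtx1 in splenic CD4+ DCs, Jag1 in LN CD103+ DCs, Dll4 in LN CD11b+ DCs, and Notch1, Hes1 and Nrarp in monocytes, while the Notch2 points of the 4 DC subtypes lie between 45.0 and 80.9 CPM.

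Rbpj (chromosome 5, 53555779 to 53657445, plus strand), through which the receptors act, was present in every subtype and lowest in monocytes. The LN CD103+ libraries had 348, 473 and 421 CPM and the LN CD11b+ libraries 227, 329 and 254 CPM. Splenic CD8+ DCs measured 189, 273 and 205 CPM, and splenic CD4+ DCs 129, 258 and 173 CPM. Monocytes had 93.9, 76.8 and 97.9 CPM. Each DC subtype was above monocytes, by 2.09-fold for splenic CD4+ DCs (edgeR adjusted p = 0.00148) to 4.62-fold for LN CD103+ DCs (edgeR adjusted p = 4.85e-07). Among DCs, neighbours in the order did not differ beyond their spread (edgeR adjusted p 0.102 to 0.469), but LN CD103+ DCs were 1.86-fold above splenic CD8+ DCs (log2 difference 0.90 ± 0.24, edgeR adjusted p = 0.00477) and 2.21-fold above splenic CD4+ DCs (edgeR adjusted p = 6.77e-04).

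The 3 target genes did not share an order over the subtypes. Dtx1 (chromosome 5, 120680202 to 120711927, minus strand) encodes Deltex-1, a ubiquitin ligase that binds the intracellular part of Notch. It measured 322, 261 and 221 CPM in splenic CD4+ DCs and 25.6, 0.809 and 1.14 CPM in splenic CD8+ DCs. The LN CD11b+ libraries had 10.5, 14.1 and 11.7 CPM and the LN CD103+ libraries 14.8, 5.03 and 7.78 CPM. The splenic CD4+ libraries thus lay above every other library by a wide margin, and LN CD11b+ DCs, also DC2s, did not stand above LN CD103+ DCs (edgeR adjusted p = 0.797). Splenic CD4+ DCs were 29.2-fold above splenic CD8+ DCs (log2 difference 4.86 ± 0.77, edgeR adjusted p = 1.14e-04). Without splenic CD8+ replicate 1, which also carried the most Cd4 (18.2 CPM) and Clec4a4 (9.19 CPM against 3.50 and 1.14) of its subtype, the ratio was 274.5. The 8 B cell markers also summed higher in the splenic CD4+ libraries (82.4 to 104.3 CPM) than in the splenic CD8+ ones (31.0 to 46.6 CPM), and their part in the Dtx1 difference was not tested. Against LN CD11b+ DCs the difference was 22.2-fold (log2 difference of LN CD11b+ minus splenic CD4+ -4.47 ± 0.75, edgeR adjusted p = 1.41e-04). Monocytes had 1, 1 and 0 counts of Dtx1, so the mean of each DC subtype was set against the level pooled over the monocyte libraries (0.0870 CPM). For splenic CD4+ DCs that ratio was 3081 (95% counting interval 853 to 25450; 4798 without monocyte replicate 1). For splenic CD8+ DCs it was 105 (95% counting interval 29.2 to 871; edgeR adjusted p = 9.94e-04), but 11.2 without splenic CD8+ replicate 1 and 164 without monocyte replicate 1, and limma on log2(TPM + 1) did not call that difference (adjusted p = 0.0586).

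Hes1 (chromosome 16, 30064384 to 30067796, plus strand), a repressor of transcription and the best known Notch target, was high in monocytes, intermediate in splenic DCs and low in LN DCs. Monocytes measured 50.5, 66.9 and 49.8 CPM, splenic CD8+ DCs 22.4, 10.1 and 20.02 CPM and splenic CD4+ DCs 17.5, 14.8 and 24.3 CPM. The LN CD11b+ libraries had 4.62, 2.05 and 4.63 CPM, those of LN CD103+ DCs 1.53, 1.64 and 0.827 CPM. No LN library reached the lowest splenic library. Splenic CD4+ and CD8+ DCs overlapped (log2 difference 0.10 ± 0.32, edgeR adjusted p = 0.85). LN CD103+ DCs were 13.2-fold below splenic CD8+ DCs (log2 difference -3.67 ± 0.40, edgeR adjusted p = 5.39e-07), and LN CD11b+ DCs 5.01-fold below splenic CD4+ DCs (-2.32 ± 0.36, edgeR adjusted p = 5.77e-05). Within the LN, CD11b+ DCs had 2.83-fold more Hes1 than CD103+ DCs (edgeR adjusted p = 0.0315). That call was lost without any of the LN CD103+ replicates or without LN CD11b+ replicate 1 or 3 (edgeR adjusted p 0.062 to 0.138). The 4 monocyte markers (Ly6c2, Ccr2, Csf1r and Cd14) summed to 524 to 625 CPM in LN CD11b+ DCs and 30.4 to 48.0 in LN CD103+ DCs, and to 5253 to 5770 in monocytes; their part in the difference was not tested.

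Nrarp (chromosome 2, 25180758 to 25183330, plus strand), a small ankyrin-repeat protein that feeds back on Notch, had few counts in DCs. No count of it was found in the 3 splenic CD8+ libraries, which allows up to 0.122 CPM over the group (3 counts). Monocytes measured 10.8, 15.1 and 11.04 CPM and splenic CD4+ DCs 0.644, 2.73 and 3.49 CPM. The LN CD11b+ libraries had 0.967, 2.05 and 2.21 CPM and the LN CD103+ libraries 4.18, 2.69 and 1.32 CPM. Monocytes lay above every DC library, and the 3 DC subtypes with counts overlapped. Nrarp was thus at least 18.7-fold higher in splenic CD4+ DCs (edgeR adjusted p = 2.86e-04), at least 22.3-fold in LN CD103+ DCs (edgeR adjusted p = 5.66e-05) and at least 14.2-fold in LN CD11b+ DCs (edgeR adjusted p = 3.30e-04) than in splenic CD8+ DCs. With splenic CD8+ replicate 1 or 3 left out, the same 3 counts are spread over fewer reads, and these bounds fell to 12.3 or 12.04, to 14.7 or 14.4 and to 9.38 or 9.17. Monocytes were 4.50-fold above LN CD103+ DCs, the next in order (edgeR adjusted p = 0.00334).

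The promoters of the targets were read for the DNA letters that RBPJ is known to bind, TGGGAA and its longer form GTGGGAA, on both strands (a match to the longer form is also a match to the shorter). The RefSeq table of promoters on GRCm38.p6 held entries for Dtx1 and Nrarp and not for Hes1. The 250 bases before the start are shown for these 2 targets because both differed between the splenic DC lineages, and for Rbpj because it was the only one of the 8 members with an entry that held a match. The windows are chr5:120711670-120711919 on the minus strand for Dtx1, chr2:25180508-25180757 on the plus strand for Nrarp and chr5:53590096-53590345 on the plus strand for Rbpj, each written 5′ to 3′ along its gene, with matches to TGGGAA on either strand in capitals.
Dtx1: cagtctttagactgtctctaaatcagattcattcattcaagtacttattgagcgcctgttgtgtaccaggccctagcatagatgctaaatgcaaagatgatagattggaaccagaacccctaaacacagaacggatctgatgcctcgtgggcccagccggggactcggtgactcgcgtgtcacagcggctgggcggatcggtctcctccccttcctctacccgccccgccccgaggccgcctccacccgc
Nrarp: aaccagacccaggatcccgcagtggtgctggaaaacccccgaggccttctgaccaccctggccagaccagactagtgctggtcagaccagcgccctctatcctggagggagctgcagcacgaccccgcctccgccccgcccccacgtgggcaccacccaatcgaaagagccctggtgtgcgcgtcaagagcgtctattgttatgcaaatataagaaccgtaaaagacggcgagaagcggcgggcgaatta
Rbpj: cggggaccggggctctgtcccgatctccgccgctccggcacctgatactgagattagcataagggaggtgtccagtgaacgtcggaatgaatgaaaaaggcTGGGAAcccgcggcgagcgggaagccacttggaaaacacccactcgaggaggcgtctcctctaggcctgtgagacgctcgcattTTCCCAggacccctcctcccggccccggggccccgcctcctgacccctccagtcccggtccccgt
Neither motif was in the windows of Dtx1 or Nrarp, which says only that these letters are absent from these bases. The Rbpj window held TGGGAA in 2 places, with first bases 149 and 65 bases before the start, and a second Rbpj start held 1 of the same matches. Of 32851 promoter windows in the table, 21.6% held TGGGAA and 5.42% GTGGGAA in the bases before the start, so a match of the short form is common. The windows of Notch1, Notch2, Notch4, Jag1 and Dll4 held neither.

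Ligand RNA was most abundant in LN DCs. The TPM of Jag1, Jag2, Dll1 and Dll4 summed to 193 ± 39.5 in LN CD103+ DCs and 80.2 ± 12.98 in LN CD11b+ DCs, against 22.9 ± 4.36 in splenic CD4+ DCs, 13.9 ± 7.12 in splenic CD8+ DCs and 2.66 ± 0.748 in monocytes (SD, n = 3). Jag1 held 94.4% ± 1.68 of this sum in LN CD103+ DCs, 80.9% ± 10.1 in splenic CD4+ DCs and 65.4% ± 6.44 in LN CD11b+ DCs. In splenic CD8+ DCs Jag2, a Jagged ligand that is not among the 9 members, held 72.7% ± 5.21.

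Jag1 (chromosome 2, 137081456 to 137116644, minus strand) took a different level in nearly every subtype. The LN CD103+ libraries had 368, 584 and 460 CPM and the LN CD11b+ libraries 123.6, 128.0 and 125.5 CPM. Splenic CD4+ DCs measured 40.7, 40.7 and 47.4 CPM and splenic CD8+ DCs 4.30, 7.14 and 15.8 CPM, while monocytes were at 6.49, 7.28 and 2.50 CPM. The 3 highest subtypes did not overlap. LN CD103+ DCs were 3.75-fold above LN CD11b+ DCs (log2 difference of LN CD11b+ minus LN CD103+ -1.91 ± 0.34, edgeR adjusted p = 7.29e-04), these 2.93-fold above splenic CD4+ DCs (edgeR adjusted p = 0.00163), and these 4.73-fold above splenic CD8+ DCs (log2 difference 2.23 ± 0.36, edgeR adjusted p = 1.59e-04). Splenic CD8+ DCs and monocytes did not differ beyond their spread (edgeR adjusted p = 0.136). The order of the lineages was thus opposite in the organs, with DC1 above DC2 in the LN and DC2 above DC1 in the spleen. Between organs, LN CD103+ DCs were 51.9-fold above splenic CD8+ DCs (log2 difference 5.69 ± 0.41, edgeR adjusted p = 3.20e-09). Without splenic CD8+ replicate 3 that ratio was 82.3 and the splenic CD4+ to CD8+ ratio 7.50. The LN DC libraries also carried the migratory DC markers Ccr7, Fscn1 and Cd40 at a summed 5424 to 12400 CPM against 198 to 596 in splenic DCs, and more of the T cell markers than splenic DCs; the part of either in the organ difference was not tested.

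Dll4 (chromosome 2, 119325784 to 119335962, plus strand), a Delta-like ligand that instructs T cells and their progenitors, was highest in LN CD11b+ DCs. It measured 30.1, 22.3 and 38.8 CPM there. Splenic CD4+ DCs had 2.45, 10.7 and 7.98 CPM and the LN CD103+ libraries 7.81, 8.07 and 11.4 CPM. Splenic CD8+ DCs had no count in any library, and in monocytes the 8 counts all came from replicate 3. The LN CD11b+ libraries lay above every other library. They were 3.34-fold above LN CD103+ DCs (log2 difference 1.74 ± 0.55, edgeR adjusted p = 0.0451), a call that was lost when any of the 6 LN libraries was left out (edgeR adjusted p 0.0594 to 0.148). They were 4.31-fold above splenic CD4+ DCs (log2 difference 2.12 ± 0.56, edgeR adjusted p = 0.00737). Against splenic CD8+ DCs, with 3 counts over the group as the floor, Dll4 was at least 57.7-fold higher in splenic CD4+ DCs (edgeR adjusted p = 6.83e-05), at least 74.4-fold in LN CD103+ DCs (edgeR adjusted p = 1.19e-05) and at least 248.5-fold in LN CD11b+ DCs (edgeR adjusted p = 1.04e-06). Without splenic CD8+ replicate 1 or 3 these bounds were 38.0 or 37.1, 49.0 or 47.9 and 163.7 or 160.0. Of the Dll4 exon length, 5.6% overlaps Gm14207 on the opposite strand, which measured 6.18 CPM or less in every library and 1.91 or more in LN CD11b+ DCs. Endothelial cells also carry Dll4 and Jag1. Of the 8 endothelial markers, Kdr was at 28.5 to 51.6 CPM in LN CD11b+ DCs and 2.65 to 4.09 CPM in LN CD103+ DCs, where no other marker passed 0.351 CPM. In LN CD11b+ DCs Tek was at 0, 2.78 and 2.65 CPM, Cdh5 at 1.10 CPM or less, Tie1 at 0.107 to 0.439 CPM and Cldn5 at 0.221 CPM or less, and Emcn, Robo4 and Sox17 were at 0. The part of these markers in the Dll4 difference was not tested.

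Counted over the members, 6 of 9 passed the threshold (edgeR adjusted p under 0.05) between the splenic DC lineages, where 27.4% of all genes tested did. Dtx1, Nrarp, Jag1 and Dll4 were higher in CD4+ DCs (14.4% of all genes were) and Notch1 and Notch4 in CD8+ DCs (13.1%), with a median log2 difference of 0.10 over the members and 0.00 over all genes. Between the LN lineages 4 of 9 passed, against 12.9% of all genes. Hes1 and Dll4 were higher in CD11b+ DCs (7.73% of all genes) and Notch4 and Jag1 in CD103+ DCs (5.22%), with a median of -0.12 over the members and 0.01 over all genes. That count fell to 2, the calls of Notch4 and Jag1, without LN CD103+ replicate 1, 2 or 3 and without LN CD11b+ replicate 1 or 3. Between LN CD103+ and splenic CD8+ DCs 7 of 9 passed, against 45.6% of all genes, with Rbpj, Nrarp, Jag1 and Dll4 higher in the LN (23.8% of all genes) and Notch1, Notch4 and Hes1 higher in the spleen (21.8%). Between LN CD11b+ and splenic CD4+ DCs 5 of 9 passed, against 33.1%, with Jag1 and Dll4 higher in the LN (19.3% of all genes) and Notch4, Hes1 and Dtx1 higher in the spleen (13.8%). Jag1 and Dll4 were thus higher and Notch4 and Hes1 lower in the LN DCs of both lineages.

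**Figure D3:**
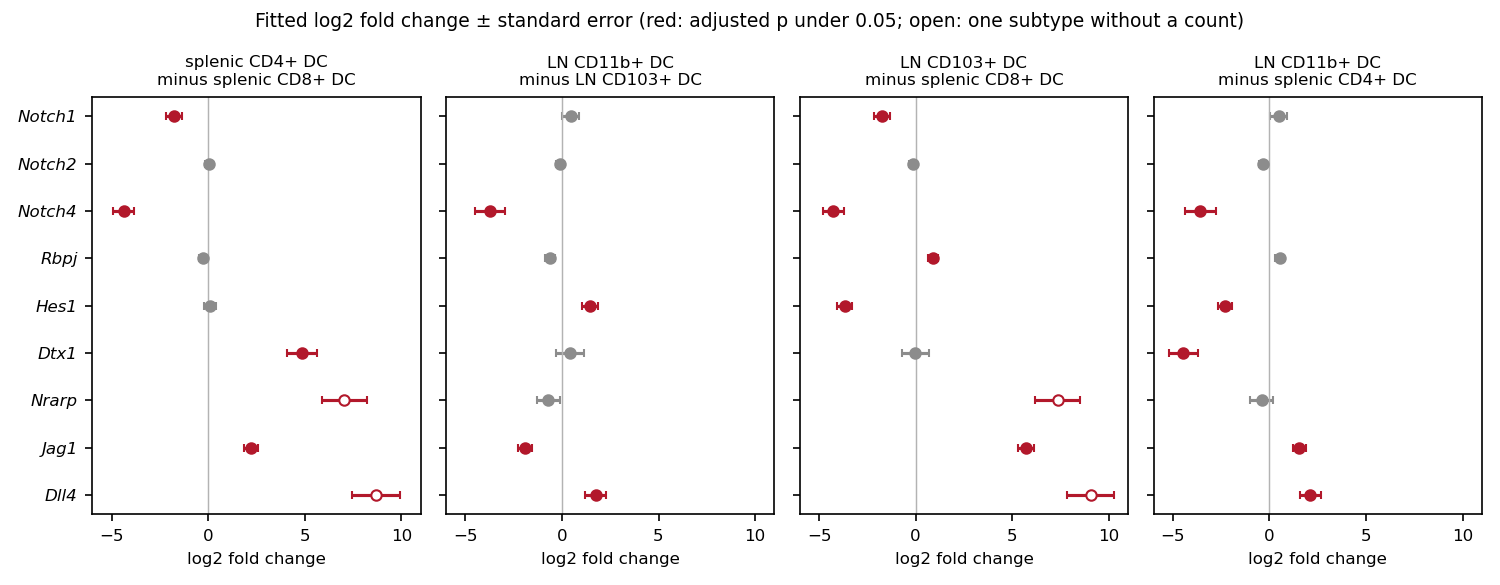
Fitted log2 fold change ± approximate standard error (x axis) of the 9 members (rows) in the 4 comparisons of DC subtypes that change lineage or organ. That error is the size of the fold change divided by the square root of its quasi-likelihood F statistic. Red marks an edgeR adjusted p under 0.05, and open circles mark genes without a count in splenic CD8+ DCs (Nrarp and Dll4), where the fitted value depends on the prior count and is no bound. Notch2 lies near 0 in each panel (0.04, -0.12, -0.16 and -0.32), and Jag1 lies on opposite sides of 0 in the first and second panels (2.23 and -1.91).

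Against monocytes, 8 of 9 members passed in splenic CD4+ DCs, with 5 higher and 3 lower in the DCs, where 48.0% of all genes passed, 24.2% higher and 23.8% lower. In splenic CD8+ DCs 6 passed, 3 each way, against 42.1% of all genes (21.7% higher, 20.4% lower). In LN CD103+ DCs 9 passed, 5 higher and 4 lower, against 53.2% (28.6% higher, 24.6% lower), and in LN CD11b+ DCs 8 passed, 4 each way, against 47.8% (26.5% higher, 21.3% lower). Notch1, Hes1 and Nrarp were higher in monocytes in each of these 4 comparisons and Rbpj and Dtx1 higher in each DC subtype. Across lineage and organ together, 4 of 9 passed between splenic CD4+ and LN CD103+ DCs, 2 each way, against 47.0% of all genes (22.2% higher and 24.8% lower in splenic CD4+ DCs). Between LN CD11b+ and splenic CD8+ DCs 6 passed, 3 each way, against 39.9% (22.5% higher and 17.3% lower in LN CD11b+ DCs). Some difference over the 5 subtypes was called for 9 of 9 members and for 73.5% of all genes.

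The organ difference of DC2 minus that of DC1 was tested as an interaction, and 5 of 9 members passed, against 11.2% of all genes. The value was above 0 for 1 of them, where 6.03% of all genes were called, and below 0 for 4, where 5.17% were. For Jag1 it was -4.14 ± 0.50 on the log2 scale (edgeR adjusted p = 2.58e-05), since LN exceeded spleen 51.9-fold in DC1 and 2.93-fold in DC2. For Dtx1 it was -4.46 ± 1.02 (edgeR adjusted p = 0.00725), with levels in LN and spleen of 9.19 and 9.17 CPM in DC1 and 12.1 and 268 CPM in DC2. Without splenic CD8+ replicate 1 the value for Dtx1 was -7.66. Nrarp and Dll4 passed as well (edgeR adjusted p = 0.00143 and 0.00864), with at least 22.3-fold and at least 74.4-fold more in LN than spleen in DC1. In DC2, LN and spleen had 1.74 and 2.29 CPM of Nrarp, and Dll4 was 4.31-fold higher in the LN. On log2(TPM + 1) with limma the call of Dll4 was lost (adjusted p = 0.44). Notch1 was the fifth, with 2.21 ± 0.62 (edgeR adjusted p = 0.0272), a call that was lost without splenic CD8+ replicate 2, splenic CD4+ replicate 3, LN CD103+ replicate 2 or LN CD11b+ replicate 3 (edgeR adjusted p 0.0504 to 0.0813). It was also lost with limma on log2(TPM + 1) and log2(TPM + 0.1) (adjusted p = 0.0552 and 0.0729) and with only the subtypes compared in the fit (edgeR adjusted p = 0.0751). For Hes1, Notch4, Rbpj and Notch2 the interaction was not called (edgeR adjusted p = 0.118, 0.788, 0.547 and 0.793).

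Around these members, 49 other genes of the pathway were followed, of which 41 passed the filter. The 8 below it were the ligands Dll3, Dlk1 and Dlk2, the targets Hes5, Hey1, Hey2 and Heyl, and Rbpjl, with 0 to 18 counts each over the 15 libraries. Of the 41, 14 passed the threshold between the splenic DC lineages (6 higher in CD4+ DCs, 8 higher in CD8+ DCs), or 34.15% against 27.4% of all genes. Between the LN lineages 7 passed (3 higher in CD11b+ DCs, 4 higher in CD103+ DCs), or 17.07% against 12.9%. Between organs 16 passed in DC1 (10 higher in the LN), or 39.02% against 45.6%, and 15 in DC2 (11 higher in the LN), or 36.59% against 33.1%. These shares lay near those of all genes. Their median log2 differences were -0.24, -0.04, 0.08 and 0.16, against 0.00, 0.01, 0.00 and 0.05 over all genes.

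Among ligands and receptors outside the 9 members, Jag2 was the counterpart of Jag1 in the spleen. It measured 16.8 ± 8.20 CPM (SD, n = 3) in splenic CD8+ DCs and had no count in splenic CD4+ DCs, a difference of at least 110-fold (edgeR adjusted p = 2.89e-06; at least 66.7-fold without splenic CD4+ replicate 1). LN CD103+ DCs had 8.17 ± 1.97 CPM and LN CD11b+ DCs 3.92 ± 3.15 CPM, and the interaction was called (edgeR adjusted p = 3.43e-04). Dll1 measured 11.8 ± 5.20 CPM in LN CD11b+ DCs, 1.16 ± 1.32 in LN CD103+ DCs and 0.304 ± 0.342 in splenic CD8+ DCs, with no count in splenic CD4+ DCs or monocytes. The Dll1 difference between the LN lineages (edgeR adjusted p = 0.0151) was lost without LN CD103+ replicate 2 and without LN CD11b+ replicate 2 or 3 (edgeR adjusted p 0.0546 to 0.0765). Notch3 was at 4.75 ± 4.57 CPM in splenic CD8+ DCs, most of it in replicate 1 (10.03 CPM), and at 1.58 CPM or less on average elsewhere. Of the exon length of Dll1, 20.5% overlaps A930024N18Rik, and of that of Notch3, 6.1% overlaps Gm17276, both on the opposite strand. The part of these overlaps in the counts was not tested.

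**Figure D4:**
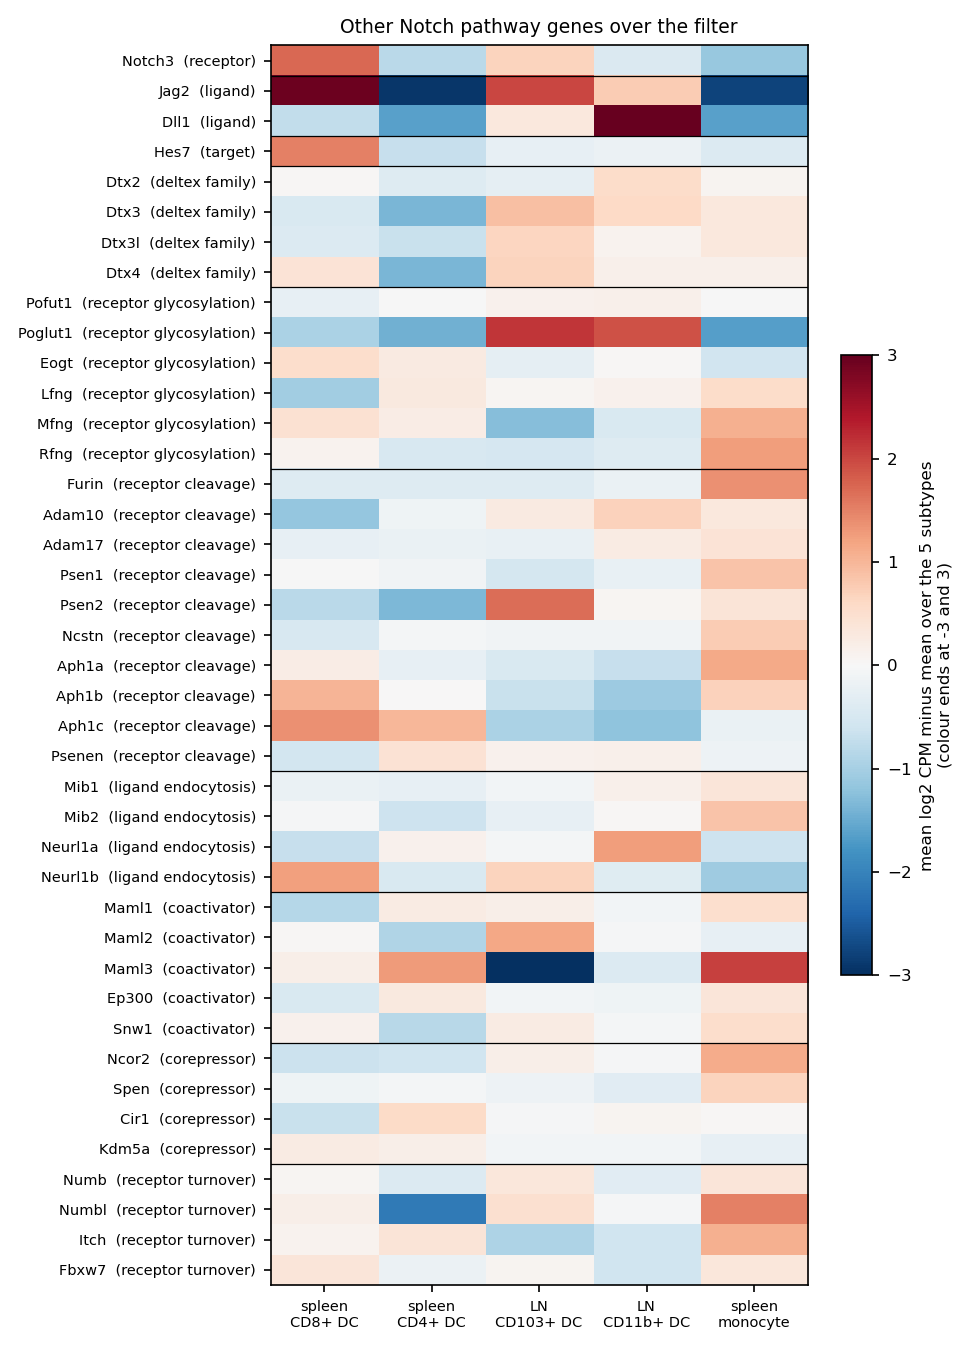
Mean log2 CPM of the 41 other pathway genes over the filter (rows, by role), by subtype (columns), minus the mean of the gene over the 5 subtypes; the colours end at -3 and 3. Poglut1 is high in both LN columns, Aph1c in both splenic DC columns, Psen2 in LN CD103+ DCs, Jag2 in splenic CD8+ DCs and Dll1 in LN CD11b+ DCs.

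Several genes that act on the receptors differed between the organs. Poglut1, which adds glucose to the receptors, rose in LN DCs of both lineages, from 94.8 ± 9.16 to 823 ± 117 CPM in DC1 (log2 difference 3.12 ± 0.28, edgeR adjusted p = 4.44e-08) and from 71.9 ± 29.6 to 704 ± 184 CPM in DC2 (3.29 ± 0.28, edgeR adjusted p = 6.66e-08). Aph1c, a subunit of the gamma-secretase that cuts the receptors, was lower in the LN, at 24.4 ± 7.56 against 120.0 ± 4.94 CPM in DC1 and 19.96 ± 3.95 against 91.6 ± 11.7 CPM in DC2 (edgeR adjusted p = 1.51e-07 and 6.76e-07). Aph1b fell with it in both lineages. The genes are close paralogs and only unique reads were counted, so reads that match both would count for neither. The catalytic subunit gene Psen2 was high in LN CD103+ DCs, at 70.15 ± 11.3 CPM against 12.3 ± 2.396 in splenic CD8+ DCs and 22.6 ± 3.79 in LN CD11b+ DCs (edgeR adjusted p = 3.59e-08 and 3.36e-05). Adam10, which encodes a protease that cuts the receptors, was 2.73-fold higher in LN CD103+ than in splenic CD8+ DCs (edgeR adjusted p = 1.74e-05). The ubiquitin ligase Dtx3 was 4.43-fold higher in LN CD11b+ than in splenic CD4+ DCs (edgeR adjusted p = 7.39e-05), and Maml3, a coactivator, 3.06-fold lower (edgeR adjusted p = 0.0124; lost without splenic CD4+ replicate 1 or LN CD11b+ replicate 2, and 5.46-fold without LN CD11b+ replicate 1). Mfng, a Fringe enzyme, was lower in LN CD103+ than in splenic CD8+ DCs (4.95 ± 2.24 against 16.4 ± 1.47 CPM, edgeR adjusted p = 4.25e-04).

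Between the splenic lineages, Lfng, a Fringe enzyme that changes which ligands a receptor answers to, was higher in CD4+ DCs (81.8 ± 19.7 against 32.1 ± 7.44 CPM, edgeR adjusted p = 4.82e-04). The coactivator Maml1 and the corepressor Cir1 were also higher there (edgeR adjusted p = 0.00803 and 0.00318). Of the Cir1 exon length, 11.7% overlaps Scrn3 and Sp9 on the opposite strand, and the part of this overlap was not tested. Dtx4, of the same family as Dtx1, went the other way from it, with 6.65 ± 1.69 CPM in CD4+ and 22.9 ± 2.34 CPM in CD8+ DCs (edgeR adjusted p = 3.77e-04), and so did Neurl1b, a ligase of ligand endocytosis (11.5 ± 3.09 against 36.9 ± 5.30 CPM, edgeR adjusted p = 5.41e-04). Between the LN lineages, Dtx2 was higher in CD11b+ DCs and Maml2 and Neurl1b in CD103+ DCs, but each of these calls was lost without LN CD103+ replicate 1, among other libraries (edgeR adjusted p = 0.125, 0.0841 and 0.168), while that of Psen2 held under every alternative tried. In the interaction 7 of the 41 were called without a block for the replicate number and 11 with it, where the share of all genes called was 11.2% and 14.9%. Jag2 kept its call in the interaction under every alternative tried, whereas those of Dll1, Dtx2, Maml1, Lfng and Psen2 were each lost when 1 of several libraries was left out (edgeR adjusted p 0.052 to 0.17).

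The genes whose log2 CPM followed a member most closely over the 15 libraries were listed for 5 members. The libraries fall into 5 subtypes, so these correlations mostly describe differences between subtypes and carry no test. Dtx1 was followed by Ltb (Pearson r = 0.964), Arap2 (0.958) and Tbx21 (0.956). Hes1 was followed by Ikzf1 (0.973), Alox5ap (0.971) and Atp8b4 (0.969), and Notch2 by Vcpip1 (0.908), Sh2b3 (0.885) and Ttc7 (0.882). Nrarp was followed by Ifi209 (0.963), Stat6 (0.939) and Actr1a (0.935), and Dll4 by F730043M19Rik (0.964), Mdk (0.952) and Snhg15 (0.947). Tbx21, a transcription factor of the T-box family, had mean levels of 77.7 CPM in splenic CD4+ DCs and 8.05 CPM or less in the other subtypes.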

How the data were processed

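Libraries were assigned to subtypes by their sample titles, and the members and gene lists were chosen with earlier results of these data known. The deposited count table came from Ion Torrent sequencing. Reads had been aligned by the authors with STAR 2.4.0j (mm10), and unique reads were assigned to Ensembl genes by featureCounts (Subread 1.5.2), ignoring strand and counting a read that overlaps several genes for each. The deposited TPM table had been derived from the counts and exon lengths by the authors. Symbols, positions and exon overlaps came from GENCODE vM21 on GRCm38, which is newer than the annotation behind the counts and named 37607 of the 38924 identifiers (96.6%).

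In R 4.3.3, 1 quasi-likelihood model (edgeR 4.0.16) with 5 subtype means was fitted to the 15 libraries (14456 genes over 1 CPM in 3 or more libraries, TMM factors 0.883 to 1.1, 10 residual degrees of freedom, two-sided tests). All adjusted p values are Benjamini-Hochberg values over all genes tested in the comparison, with a threshold of 0.05. Each SE of a log2 difference is approximate. It was taken as the size of the fitted fold change divided by the square root of its quasi-likelihood F statistic. CPM used TMM library sizes, and log2 CPM a prior count of 2. Unscaled library totals were used instead for the filter and for the CPM of the genes that overlap Notch1 or Dll4. Where a group had no count, folds were bounded with 3 counts over that group. Counting intervals (95%) are exact and Poisson. The procedure was tested on counts simulated for splenic CD4+ against splenic CD8+ DCs. It called 29 of 100 2-fold changes and 100 of 100 4-fold changes in the right direction, and 4 of 14256 unchanged genes. The simulation gave all genes the same dispersion, changed only genes above a minimum mean level and kept all other genes equal over the subtypes. These rates thus do not cover genes with fewer counts, such as Nrarp, or with a wider spread between replicates, such as Dtx1. A difference of 2-fold or less could go uncalled, as could a larger one in such genes.

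Every member was described. Other pathway genes were named if they were among the 3 with the largest fitted fold change in a direction, past the threshold, with the higher group averaging 10 CPM or more. Notch3, Tbx21 as a leading gene by likeness, and the genes below the filter were described after their values were seen. For likeness, the 3 genes of highest Pearson r were taken among 10146 genes averaging 10 CPM or more in a subtype.

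The replicate numbers in the titles were checked by correlating deviations from group means. All 3 same-numbered pairs were over 0.1 between the splenic DC lineages (0.162 to 0.375) and between the LN lineages (0.179 to 0.259). Across organs this held between splenic CD4+ DCs and LN CD11b+ DCs (0.197 to 0.266) or LN CD103+ DCs (0.117 to 0.146). The numbers were taken as pairing there, and in the other 6 subtype pairs they were not. No label says what the number marks, and LNs and spleens came from different cohorts. The main model had no term for the replicate number, so its p values ignore this pairing, which entered only as the replicate block below. The alternatives were RLE size factors, DESeq2 1.42.0, no filter, filterByExpr, limma 3.58.1 with trend on log2(TPM + 1) and log2(TPM + 0.1), only the subtypes compared, a replicate block, and leaving out each library. Leaving out splenic CD8+ replicate 1 and LN CD103+ replicate 1 together was added after the data were seen.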

Additional observations from a re-analysis of the deposited data

Results flagged for a closer look

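For 5 members the difference between LN and spleen differed between the DC lineages, by a test of the difference itself in edgeR. The organ difference in DC2 minus that in DC1 was 2.21 on the log2 scale for Notch1, -4.46 for Dtx1, -7.74 for Nrarp, -4.14 for Jag1 and -6.93 for Dll4. The values of Nrarp and Dll4 depend on a prior count, since splenic CD8+ DCs had no count of either. That of Dtx1 was between -7.66 and -3.93 with 1 library left out, and -7.66 came without splenic CD8+ replicate 1.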

How the results depend on the processing

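Of the 68 calls of members over the comparisons, none changed direction. All 68 kept their side of the threshold with DESeq2, RLE size factors, filterByExpr, no filter on low counts and the replicate block, and 63 with limma on log2(TPM + 1), 65 on log2(TPM + 0.1), 66 with only the subtypes compared and 63 without splenic CD8+ replicate 1 and LN CD103+ replicate 1 together. Leaving out each library kept 1001 of 1020, a total that includes libraries outside the subtypes compared. All 19 losses came from leaving out a library of the subtypes compared. The count of members between the LN lineages fell from 4 to 2 on log2(TPM + 1) and without those 2 libraries, and lay between 2 and 5 with 1 library left out. The count of other pathway genes there fell from 7 to 2 without those 2 libraries, and lay between 2 and 7 with 1 left out. In the interaction the count of other pathway genes was 7, and became 11 with DESeq2, 11 with the replicate block, 3 on log2(TPM + 0.1), 4 with only the subtypes compared, 3 without those 2 libraries and 2 to 9 with 1 left out. The replicate block changed no call of a member and no other count by over 1.5 times. The cause of these changes was not tested, and fits that left libraries out also held fewer replicates. The share of promoter windows with TGGGAA was 25.6% when the 50 bases after the start were included and that with GTGGGAA 6.38%. Low counts limit Nrarp in DCs and Notch4 in LN CD11b+ DCs (9 counts in all).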
